A study of Mus musculus with 13 samples.

Results

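Scavenger and phagocytic receptors are the surface and lysosomal proteins with which macrophages bind and take in modified lipoproteins, amyloid, lipids, microbial products and dying cells. Genes of this kind were followed across 13 RNA libraries of mouse microglia: Msr1, Colec12, Olr1, Cd36, Scarb1, Scarb2, Lrp1, Cd14 and Cd68. They were taken by gene symbol, as receptors linked to the uptake of amyloid and lipoproteins, and all 9 are among the 19737 genes of the table. The libraries fall into 4 groups. WT EGFP holds 3 libraries from wild type mice and 5xFAD EGFP holds 2 libraries from 5xFAD mice, in both cases after AAV PHP.eB-EGFP, a viral capsid that reaches the mouse brain from the blood, here carrying the fluorescent protein EGFP. 5xFAD circRNA holds 4 libraries from 5xFAD mice after the same capsid carrying circPOLR2A, a circular RNA meant for delivery to neurons. The bracketed numbers after circPOLR2A differ between the labels of those 4 libraries, while the design text names 1 construct, so whether all 4 received the same construct was not settled. 5xFAD PKR KO holds 4 libraries from 5xFAD mice without PKR, the kinase activated by double-stranded RNA and encoded by Eif2ak2, and the labels name no virus for it. The knockout, the missing virus and any difference in when these libraries were made therefore cannot be told apart. All 3 5xFAD groups share human transgenes with familial Alzheimer mutations, driven in neurons by a Thy1 promoter. The labels give no age, and they do not say that the libraries of a group came from separate animals, so p-values measure only the spread between these libraries, which may be technical.

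The receptors belong to several protein families. Msr1 and Colec12 encode trimeric class A receptors with collagen-like stalks, and Olr1 encodes the lectin-like receptor for oxidized LDL. Cd36, Scarb1 and Scarb2 form the CD36 family: Cd36 binds oxidized lipoproteins, fatty acids and fibrillar amyloid, Scarb1 binds high density lipoprotein, and the Scarb2 product, LIMP-2, sits in the lysosomal membrane. Lrp1 encodes a very large endocytic receptor of the LDL receptor family that takes up apolipoprotein E and amyloid. Cd14 encodes a lipid-anchored co-receptor that hands bacterial lipids and amyloid to Toll-like receptors, and Cd68 encodes a heavily glycosylated endolysosomal membrane protein widely used as a marker of phagocytic microglia.

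Positions are given here for 7 of the 9. In the mouse genome build GRCm38, Msr1 lies at chr8:39581685-39642673, Cd36 at chr5:17781690-17888801, Scarb1 at chr5:125277087-125341094, Scarb2 at chr5:92441314-92506833, Lrp1 at chr10:127538161-127621148, Cd68 at chr11:69664213-69666153 and Olr1 at chr6:129485244-129507165, all on the minus strand. No other annotated gene shares exon bases with any of the 9. RefSeq start sites (GRCm38.p6) were matched for 5 of the 9, and the 250 bases before the start were searched on both strands for AP-1 (TGANTCA), PU.1 (GAGGAAGT) and the CLEAR element read by TFEB (GTCACGTG). The 4 windows below are shown because their genes behaved differently: Cd68 rose, Cd36 fell, Scarb2 did not pass the test in any comparison, and Olr1 holds the other AP-1 match. They are written 5′ to 3′ on the gene's strand, with AP-1 matches in capitals, and the Cd36 and Scarb2 windows lie inside the annotated span of their genes.
Cd68, chr11:69666171-69666420: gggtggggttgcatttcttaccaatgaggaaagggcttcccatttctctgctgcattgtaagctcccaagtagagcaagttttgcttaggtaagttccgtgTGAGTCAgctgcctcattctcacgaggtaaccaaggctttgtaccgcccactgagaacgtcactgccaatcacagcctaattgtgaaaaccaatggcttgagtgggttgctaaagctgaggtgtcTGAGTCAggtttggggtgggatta
Olr1, chr6:129507166-129507415: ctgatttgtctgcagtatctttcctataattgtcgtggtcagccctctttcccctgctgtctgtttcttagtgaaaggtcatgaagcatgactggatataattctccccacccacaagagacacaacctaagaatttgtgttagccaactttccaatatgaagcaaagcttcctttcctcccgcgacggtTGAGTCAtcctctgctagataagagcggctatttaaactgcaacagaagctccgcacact
Cd36, chr5:17835897-17836146: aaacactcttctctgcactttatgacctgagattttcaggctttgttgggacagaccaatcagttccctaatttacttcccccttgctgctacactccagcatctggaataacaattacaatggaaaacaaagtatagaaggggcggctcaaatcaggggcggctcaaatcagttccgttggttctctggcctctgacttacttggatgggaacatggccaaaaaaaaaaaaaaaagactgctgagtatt
Scarb2, chr5:92505658-92505907: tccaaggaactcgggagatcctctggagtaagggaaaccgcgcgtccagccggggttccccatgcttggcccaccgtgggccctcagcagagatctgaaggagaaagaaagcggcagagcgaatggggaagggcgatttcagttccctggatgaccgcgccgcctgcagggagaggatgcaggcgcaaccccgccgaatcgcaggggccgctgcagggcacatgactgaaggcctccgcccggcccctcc
The Cd68 window holds 2 AP-1 matches and the Olr1 window 1, whereas those of Cd36, Scarb2 and Lrp1 hold 0. An AP-1 match was present in 6.87% of 27025 mouse promoter windows of the same length. PU.1 and CLEAR letters were found in 2.44% and 1.89% of these windows and in 0 of the 5 members' windows. G and C made up 43.2% of the Cd36 window, 45.2% of that of Olr1, 49.2% of that of Cd68 and 65.6% of that of Scarb2. A match is a run of letters and not evidence of binding.

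Sequencing depth, recovered from the smallest steps of the deposited FPKM values (fragments per kilobase of exon, scaled to the depth of the library), was 45.2 to 70.0 M fragments per library, with all 4 PKR KO libraries above the others (57.7 to 70.0 M). Eif2ak2, the targeted gene, stood at 3.31 to 4.61 FPKM in the PKR KO libraries, below 6.49 and 6.59 FPKM in the 5xFAD EGFP libraries but overlapping the 4.14 to 5.23 FPKM of wild type. A gene-level value cannot show which exons were deleted. Microglial markers were high throughout (8 genes, summed level 2430 to 4064 FPKM), while those of monocytes (at most 2.12), fibroblasts (at most 3.47) and T cells (at most 0.893) were near 0. Summed neutrophil markers (6 genes) were 1.25 to 9.58 FPKM in 12 libraries and 24.6 FPKM in PKR KO replicate 4, summed neuron markers (7 genes) 4.32 to 19.3 FPKM, and summed astrocyte markers (6 genes) 78.3 to 258 FPKM, the last 2 highest in WT EGFP replicate 3. WT EGFP replicate 3 stood apart, with the highest summed oligodendrocyte markers (1580 FPKM against 225 to 786 in the other 12 libraries) and the lowest summed microglial markers. It also had the lowest Cd14, Cd68, Lrp1 and Scarb2 of all libraries.

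Against wild type, the receptors of 5xFAD microglia moved in both directions. Cd68 and Cd14 rose in all 3 5xFAD groups, by 3.03 to 3.46-fold and by 2.02 to 2.74-fold, and Scarb1 rose by 1.64 to 1.95-fold. Cd36 fell in all 3, to between 0.334 and 0.648 of its wild type level. Lrp1 and Scarb2, both abundant, did not pass the test in any comparison. Colec12 was highest in the PKR KO group, where it rose by 2.37-fold against wild type. The 3 comparisons with wild type share the same 3 control libraries and are not independent of each other. Because these are bulk libraries, fewer cells of a type and less RNA per cell cannot be told apart.

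**Figure D1:**
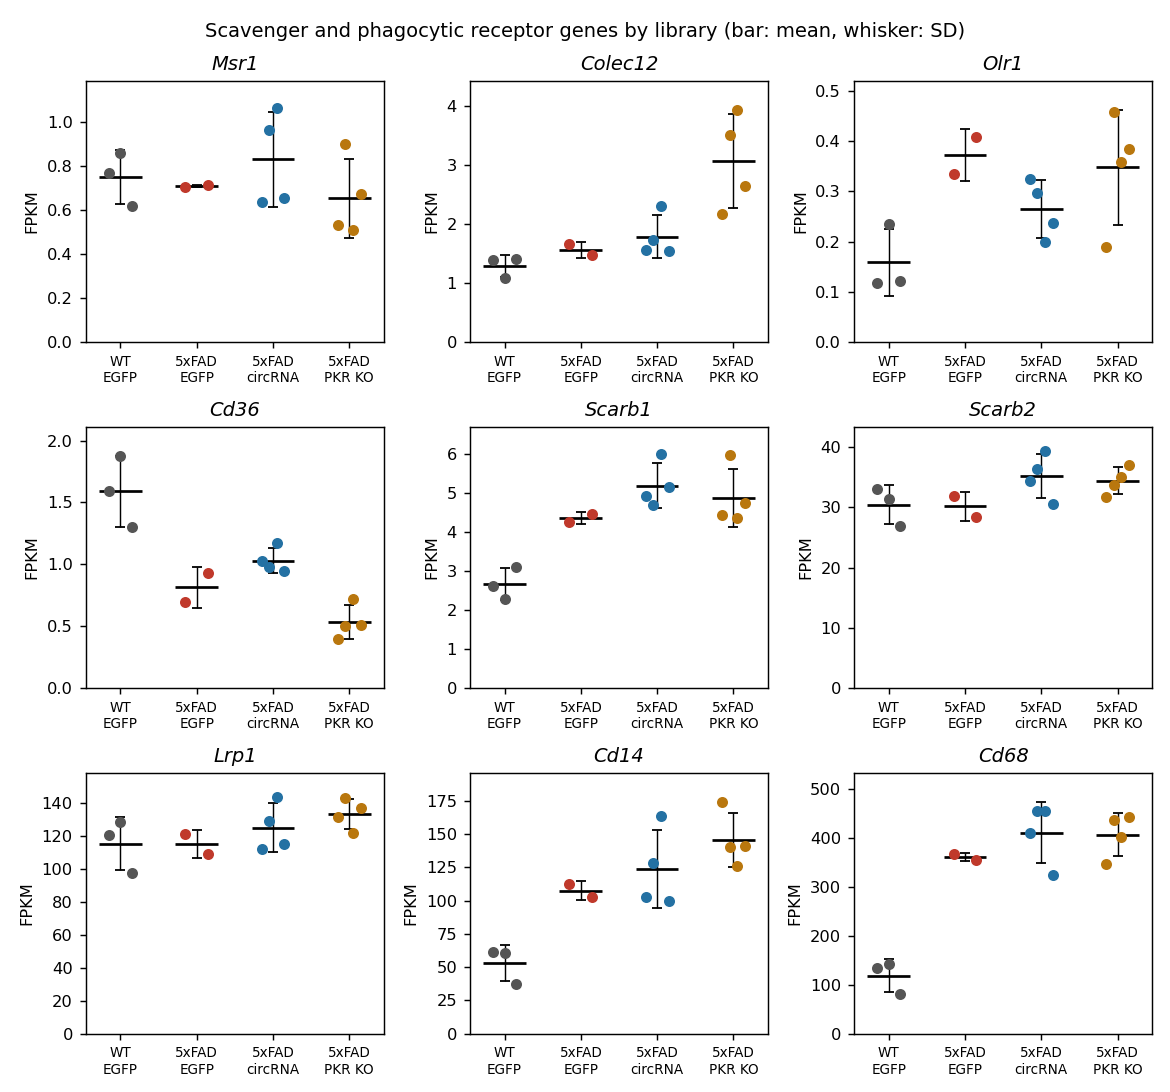
FPKM of the 9 receptor genes in each library, with 1 point per library, a bar at the group mean and a whisker of 1 SD on either side, for groups of 3, 2, 4 and 4 libraries. Each vertical axis starts at 0 and has its own range. Cd68 stands at 81.1 to 142 FPKM in wild type and at 325 to 457 FPKM in the 5xFAD groups, while Cd36 is highest in the 3 wild type libraries.

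Changes were tested with limma on log2(FPKM + 1) in 1 model of all 13 libraries, for 10817 genes whose mean reached 1 FPKM, at a Benjamini-Hochberg adjusted p of 0.05. Scarb1, Scarb2, Lrp1, Cd14, Cd68 and Colec12 entered that test. Msr1, Cd36 and Olr1 had a lower mean, and for them the same model fitted to all 18291 genes above 0 is given. The log2 scale with 1 added understates the changes of low genes. In 5xFAD EGFP against WT EGFP, 3 of the 6 tested receptors rose and 0 fell, where 7.65% of all tested genes rose and 6.35% fell. Their median log2 change was 0.36, against -0.03 over all tested genes. In 5xFAD circRNA against WT EGFP the count was again 3 of 6, where 17.8% of all tested genes rose, and the medians were 0.52 and 0.02. In 5xFAD PKR KO against WT EGFP, 4 of 6 rose, where 17.5% of all tested genes rose and 19.4% fell, and the medians were 0.74 and -0.05. No receptor passed in 5xFAD circRNA against 5xFAD EGFP, where 0 genes passed at all. By limma, 523 genes in that comparison had an unadjusted p under 0.05, 0 of the 6 receptors among them. In 5xFAD PKR KO against 5xFAD EGFP 0 of 6 passed, where 0.0832% of all tested genes did by limma, and 1 of the 6, Colec12, had an unadjusted p under 0.05, as did 13% of all tested genes (1404 of 10817). Of the 3 low receptors Cd36 also did, in the fit of every gene (limma unadjusted p = 0.0375). Between 5xFAD circRNA and 5xFAD PKR KO, Colec12 was the 1 of the 6 that passed, lower in the former, where 1.91% of all tested genes were lower, and Cd36 passed in the fit of every gene, higher in the former. Libraries of a comparison often did not overlap: 16.5% of tested genes lay wholly higher and 21.1% wholly lower in 5xFAD EGFP than in wild type, against 20.2% and 8% for circRNA and 19.8% and 21.1% for PKR KO.

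**Figure D2:**
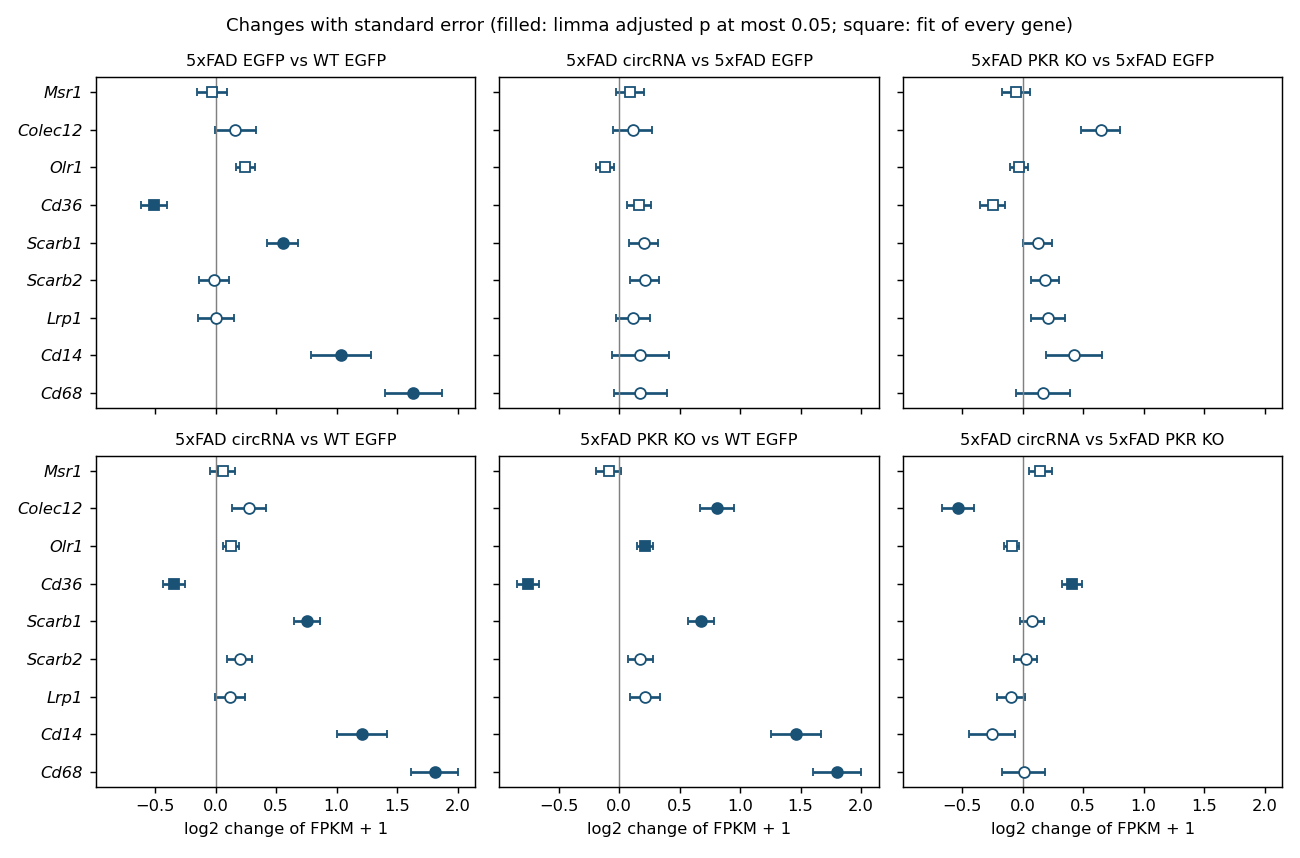
Log2 change of FPKM + 1 for each receptor in the 6 comparisons, with a bar of 1 standard error on either side. Filled symbols have a limma adjusted p of at most 0.05, and squares mark Msr1, Cd36 and Olr1, fitted with every gene. Cd68, Cd14 and Scarb1 lie to the right and Cd36 to the left in each of the 3 comparisons with wild type, and no symbol is filled in either comparison with 5xFAD EGFP as the control.

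Per length of transcript, the receptors covered a wide range of levels. In wild type the mean FPKM ran from Cd68 (119) and Lrp1 (115) through Cd14 (53.1), Scarb2 (30.5), Scarb1 (2.67), Cd36 (1.59), Colec12 (1.30) and Msr1 (0.749) to Olr1 (0.158). Neighbours in this order had separate ranges except Cd68 with Lrp1 and Cd36 with Colec12. In all 3 5xFAD groups Cd68 stood above Lrp1 with separate ranges, Cd14 overlapped Lrp1, and Colec12 stood above Cd36 with separate ranges. Cd36 then overlapped Msr1 in each of these 3 groups.

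Among the class A receptors, Msr1, which binds modified LDL and fibrillar amyloid, was low in every library. It read 0.769, 0.859 and 0.618 FPKM in wild type, 0.704 and 0.712 in 5xFAD EGFP, 0.636, 0.963, 1.06 and 0.656 in 5xFAD circRNA, and 0.533, 0.898, 0.508 and 0.673 in PKR KO. The ranges of all groups overlapped, and the range within the circRNA group and within the PKR KO group was wider than the distance between any 2 group means. The log2 change between 5xFAD EGFP and wild type was -0.03 (95% interval -0.30 to 0.24, limma adjusted p = 0.924). Between 184 and 399 fragments per library lay behind these values.

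Colec12 encodes the collagen-stalked receptor CL-P1, which is also made by vascular cells. It read 1.39, 1.08 and 1.42 FPKM in wild type, 1.66 and 1.47 in 5xFAD EGFP, 1.57, 1.73, 2.32 and 1.55 in 5xFAD circRNA, and 2.18, 3.51, 3.95 and 2.65 in PKR KO. All 4 PKR KO libraries lay above all wild type and all 5xFAD EGFP libraries, and 1 circRNA library (2.32) reached into the PKR KO range. Against wild type the PKR KO mean of 3.07 ± 0.803 (SD, n = 4) was higher by 0.81 on the log2 scale (SE 0.14, limma adjusted p = 0.00103). This call held in all 10 alternative settings and in all 7 fits that left out a library. Against 5xFAD EGFP (1.57 ± 0.133, n = 2) the same libraries were 1.96-fold higher, with a log2 change of 0.65 (95% interval 0.29 to 1.00), and this did not pass (limma adjusted p = 0.181, range over the alternatives 0.0258 to 0.779). The lower end of that range came from a fit with a weight for each library. 5xFAD circRNA stood 0.53 lower than PKR KO on the log2 scale (SE 0.13, limma adjusted p = 0.0381), and the call was lost in 5 of 8 fits that left out a library, in which the adjusted p reached 0.111, and in 3 of 10 alternative settings (range 0.00420 to 0.136). The circRNA libraries also differed from 5xFAD EGFP by 0.11 (95% interval -0.24 to 0.47), which did not pass (limma adjusted p = 0.813).

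Early response genes, when summed, had their highest group mean in PKR KO, as did Colec12. The summed level of 10 early response genes that rise when cells are dissociated, such as Fos and Jun, was 1493 to 1803 FPKM in the PKR KO libraries, 996 and 1141 FPKM in 5xFAD EGFP, 657 to 979 FPKM in 5xFAD circRNA and 524 to 887 FPKM in wild type. Of these 10 genes 6 rose in 5xFAD EGFP, 3 in 5xFAD circRNA and 9 in PKR KO against wild type, where 7.65%, 17.8% and 17.5% of all tested genes rose. The other gene, Hspa1a, fell in PKR KO (-1.25, limma adjusted p = 0.0346), and 9 of the 10 were lower in 5xFAD circRNA than in PKR KO, where 1.91% of all tested genes were lower. Between 5xFAD EGFP and 5xFAD circRNA the sum and Colec12 went opposite ways. The mean sum was 1068 and 823 FPKM there, and mean Colec12 1.57 and 1.79 FPKM. What raised the early response genes was not tested, nor was their part in the Colec12, Cd14, Cd68 and Scarb1 results. The summed level of 6 mural cell markers was 49.7 to 110 FPKM in wild type, 18.2 and 31.7 FPKM in 5xFAD EGFP, 24.9 to 46.0 FPKM in 5xFAD circRNA and 22.7 to 41.3 FPKM in PKR KO. It was thus lower in PKR KO than in wild type, where Colec12 was higher. Against 5xFAD EGFP the mural mean was 30.6 against 24.9 FPKM and the endothelial mean (7 genes) 52.4 against 36.2 FPKM, in the same direction as Colec12. The median log2 changes of their tested genes were 0.22 and 0.39 there, and the part of vascular RNA in that difference was not tested.

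Olr1, which encodes the oxidized LDL receptor LOX-1, was the lowest of the 9. It read 0.119, 0.235 and 0.122 FPKM in wild type, 0.335 and 0.408 in 5xFAD EGFP, 0.325, 0.297, 0.198 and 0.237 in 5xFAD circRNA, and 0.189, 0.458, 0.359 and 0.383 in PKR KO. Both 5xFAD EGFP libraries lay above wild type, and the other 5xFAD groups overlapped it. The mean was 2.34-fold higher in 5xFAD EGFP than in wild type, and this did not pass (limma adjusted p = 0.0739). PKR KO was 2.19-fold higher than wild type with a limma adjusted p of 0.0290 in the fit of every gene, where 11.6% of genes rose. It was not kept in 5 of 7 fits that left out a library or in 3 of 7 alternative settings, over which the adjusted p ranged from 0.0216 to 0.258. Only 20 to 115 fragments per library lay behind Olr1, a counting error of 22.4% to 9.35%.

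In the CD36 family the 3 genes took different courses. Cd36 itself read 1.59, 1.88 and 1.30 FPKM in wild type, 0.698 and 0.928 in 5xFAD EGFP, 1.02, 0.980, 1.18 and 0.942 in 5xFAD circRNA, and 0.396, 0.501, 0.720 and 0.509 in PKR KO. Every wild type library lay above every 5xFAD library, and every circRNA library lay above every PKR KO library, as for 15.1% of all tested genes in that direction. In the fit of every gene Cd36 fell by 0.51 on the log2 scale in 5xFAD EGFP (SE 0.11, limma adjusted p = 0.0160, 0.512 of the wild type mean), where 5.63% of genes fell. It fell by 0.35 in 5xFAD circRNA (SE 0.09, limma adjusted p = 0.0230), where 8.26% of genes fell. It fell by 0.76 in PKR KO (SE 0.09, limma adjusted p = 0.000208), where 19.5% of genes fell. The PKR KO call held in all 7 alternative settings and in all 7 fits without a library. The 5xFAD EGFP call was lost without replicate 1 or replicate 2 of that group (limma adjusted p = 0.132 and 0.0504) and under quantile normalization (0.145), over a range of 0.00485 to 0.145 in the alternatives. The circRNA call was lost in 4 of 7 fits that left out a library and under 3 of 7 alternatives (limma adjusted p up to 0.235, and 0.0517 with the replicate number as a block).

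Between the other 5xFAD groups, Cd36 was 1.94-fold higher in circRNA than in PKR KO, with a log2 difference of 0.41 (SE 0.08, limma adjusted p = 0.0336), where 1.48% of genes were higher. The call was lost in 7 of 8 fits that left out a library (limma adjusted p up to 0.103) and in 4 of 7 alternative settings (range 0.0204 to 0.280), among them the replicate number as a block (0.0777). Neither group differed from 5xFAD EGFP beyond the test: the log2 changes of Cd36 were 0.16 for circRNA (limma adjusted p = 0.881) and -0.24 for PKR KO (limma adjusted p = 0.447). Between 82 and 321 fragments per library lay behind Cd36.

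Cd36 is also made by capillary endothelium and other macrophages, and summed markers of such cells were also lower on average in each 5xFAD group than in wild type. The summed level of 6 border macrophage markers, among them Mrc1 and Cd163, was 41.9 to 66.3 FPKM in wild type and 15.5 to 28.6 FPKM in the 10 5xFAD libraries. All 6 fell in each of the 3 comparisons with wild type, where 6.35% (5xFAD EGFP), 8.05% (circRNA) and 19.4% (PKR KO) of all tested genes fell. The summed level of 7 endothelial markers was 66.2 to 150 FPKM in wild type, 29.2 and 43.1 FPKM in 5xFAD EGFP, 42.1 to 82.9 FPKM in 5xFAD circRNA and 42.6 to 63.5 FPKM in PKR KO. No gene of either set was at 0 in every library of a group. Among the 5xFAD groups the endothelial mean was 36.2 (EGFP), 57.3 (circRNA) and 52.4 FPKM (PKR KO). Mean Cd36 was 0.813, 1.03 and 0.531 FPKM in the same order. In PKR KO the endothelial mean was thus higher than in 5xFAD EGFP, and Cd36 lower. With the mean of the neuron, astrocyte, oligodendrocyte, endothelial and mural markers as a covariate, the Cd36 change in 5xFAD EGFP was -0.58, against -0.51 without it. That covariate was 1 mean over sets that moved in opposite directions, so it could not adjust for endothelial RNA alone. The median log2 changes of their tested genes were 0.69 (oligodendrocyte), 0.50 (neuron), -0.40 (astrocyte), -1.46 (endothelial) and -1.48 (mural). The part of endothelial or border macrophage RNA in the Cd36 result was not tested. Between circRNA and PKR KO, where Cd36 ranges were separate, the ranges of the border macrophage sums (15.5 to 27.0 and 15.6 to 21.4 FPKM) overlapped. The means of these sums (23.5 and 19.3 FPKM) differed in the same direction as Cd36.

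**Figure D3:**
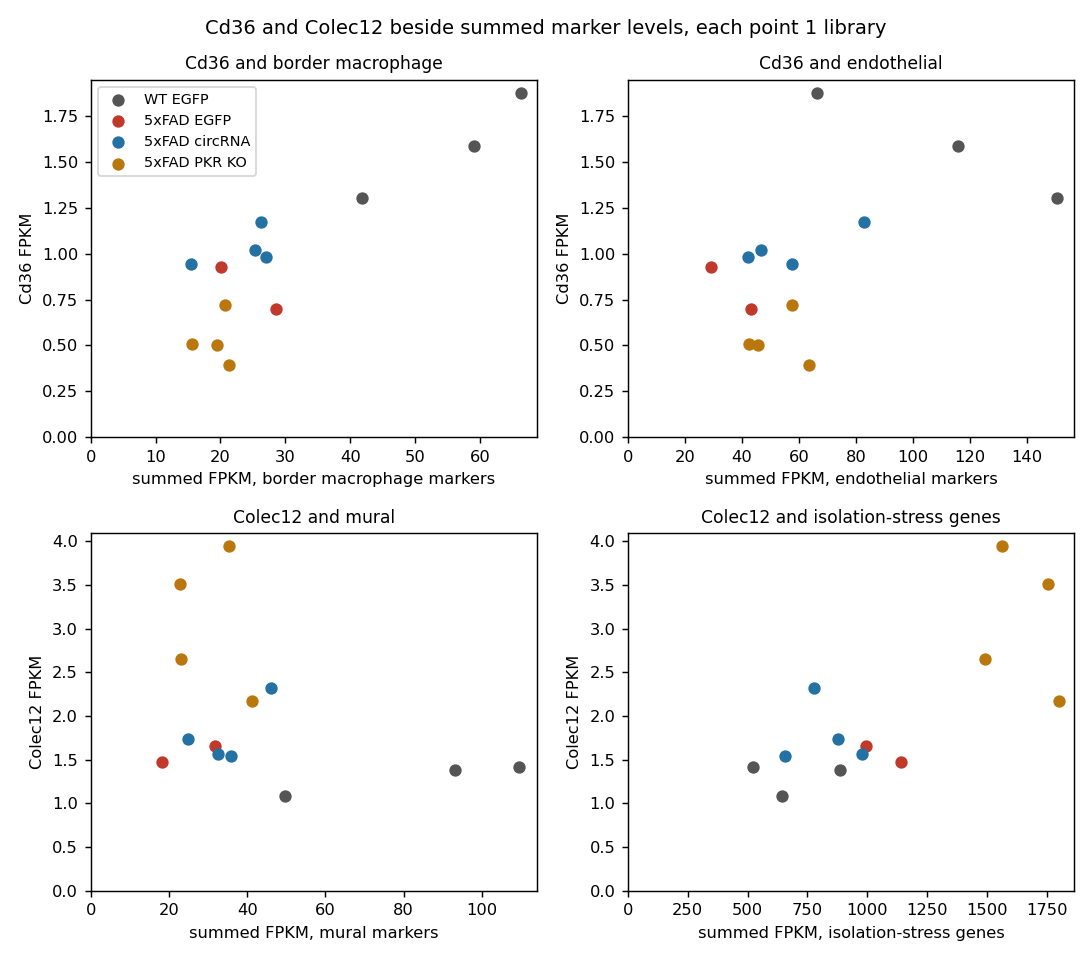
FPKM of Cd36 against the summed FPKM of border macrophage and endothelial markers (upper panels) and of Colec12 against that of mural markers and of isolation-stress genes (lower panels), with 1 point per library coloured by group. All axes start at 0. Wild type libraries hold the highest Cd36 (1.30 to 1.88 FPKM) and the highest border macrophage sums (41.9 to 66.3 FPKM), and PKR KO libraries hold the highest isolation-stress sums (1493 to 1803 FPKM).

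Scarb1, the receptor for high density lipoprotein, moved opposite to Cd36. It read 2.62, 2.28 and 3.10 FPKM in wild type, 4.25 and 4.47 in 5xFAD EGFP, 4.92, 4.69, 6.0 and 5.15 in 5xFAD circRNA, and 4.44, 5.97, 4.36 and 4.74 in PKR KO. Every 5xFAD library lay above every wild type library, and every circRNA library lay above both 5xFAD EGFP libraries, as for 16.6% of all tested genes in that direction. Scarb1 rose by 0.55 on the log2 scale in 5xFAD EGFP (SE 0.13, limma adjusted p = 0.0127), by 0.76 in circRNA (SE 0.11, limma adjusted p = 0.000247) and by 0.68 in PKR KO (SE 0.11, limma adjusted p = 0.000434). The 5xFAD EGFP call was lost without either of its replicates (limma adjusted p = 0.0644 and 0.114), with only the groups compared in the model (0.0639) and with libraries scaled to 4 microglial genes (0.194), the range over the alternatives being 0.00250 to 0.194. The circRNA call was lost only under that microglial scaling (limma adjusted p = 0.0556). As a ratio of FPKM within a library, Cd36 over Scarb1 was 0.617 ± 0.201 (SD, n = 3) in wild type, 0.186 ± 0.0307 (n = 2) in 5xFAD EGFP, 0.199 ± 0.0121 (n = 4) in circRNA and 0.111 ± 0.0373 (n = 4) in PKR KO. The lowest wild type ratio (0.421) was above the highest in any 5xFAD library (0.209). This follows from the separate ranges of both genes and is no further result.

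Scarb2, encoding LIMP-2, read 33.1, 31.4 and 26.9 FPKM in wild type, 31.9 and 28.5 in 5xFAD EGFP, 34.3, 36.4, 39.4 and 30.6 in circRNA, and 31.7, 33.8, 35.1 and 37.1 in PKR KO. The ranges of all groups overlapped. The log2 change in 5xFAD EGFP against wild type was -0.01 (95% interval -0.28 to 0.26, limma adjusted p = 0.974), and its sign changed with the scaling. The ratio of Scarb2 to Cd68 FPKM, both of lysosomal membrane genes, was 0.221 to 0.332 in the wild type libraries and 0.0774 to 0.0943 in the 10 5xFAD libraries, without overlap. No test of this ratio was made.

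Lrp1 was the second most abundant receptor in wild type. It read 120, 128 and 97.1 FPKM in wild type, 121 and 109 in 5xFAD EGFP, 112, 129, 144 and 115 in circRNA, and 131, 143, 122 and 137 in PKR KO. Wild type replicate 3 was the lowest of the 13 libraries. PKR KO was the only group whose libraries all lay above both 5xFAD EGFP libraries, as for 17.7% of all tested genes in that direction. The nearest values were 121.7 and 120.9 FPKM, and the log2 change of 0.21 between these groups did not pass (limma adjusted p = 0.532). The log2 change in 5xFAD EGFP was 0.00 (95% interval -0.32 to 0.33, limma adjusted p = 0.994), in circRNA against wild type 0.12 (limma adjusted p = 0.548) and in PKR KO against wild type 0.21 (limma adjusted p = 0.196). Under quantile normalization Lrp1 instead read -0.33, -0.36 and -0.37 in these 3 comparisons (limma adjusted p = 0.0380, 0.00623 and 0.00446), so no direction is given for it.

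Around Lrp1, a list of 14 genes of the LDL receptor family and its chaperone had 11 tested members. In 5xFAD EGFP 3 rose and 0 fell, where 7.65% and 6.35% of all tested genes did, with a median log2 change of -0.10. The count that fell moved with the scaling, being 2 under quantile normalization and 5 after rescaling to the same FPKM sum, beside 3 that rose in both, where 986 and 3001 of all 10817 tested genes fell. Lrpap1, which encodes the chaperone that keeps LDL receptor family members from binding ligand during their synthesis, rose by 0.98 (SE 0.15, limma adjusted p = 0.00116), from 10.5 ± 0.938 to 21.6 ± 0.389 FPKM. Lrp12, another member of the family, rose by 0.44 (limma adjusted p = 0.00603, lost without 5xFAD EGFP replicate 1 and under the microglial scaling). The ratio of Lrpap1 to Lrp1 FPKM was 0.0853 to 0.0968 in wild type, 0.177 and 0.201 in 5xFAD EGFP, 0.204 to 0.251 in circRNA and 0.216 to 0.295 in PKR KO. In PKR KO against wild type 4 of the 11 rose, among them Lrpap1, Lrp12 and Sorl1, and 2 fell, Vldlr by 0.75 and Lrp8 by 0.63, both lost without wild type replicate 1 or replicate 3 and Lrp8 also without PKR KO replicate 2 or replicate 4. Over all tested genes 17.5% rose and 19.4% fell there, so the share of the list that fell is near the background. The Lrp12, Sorl1 and Lrp8 calls were lost under the microglial scaling, which left 1 higher and 1 lower, and after rescaling 4 were higher and 5 lower, where 5421 of all 10817 tested genes were lower. Sorl1, a sorting receptor for the amyloid precursor protein, was also higher in PKR KO (13.2 ± 0.393 FPKM, n = 4) than in 5xFAD EGFP (9.12 ± 1.08 FPKM, n = 2), with a log2 change of 0.49 and a limma adjusted p of 0.0430 that was lost in each of the 6 fits without a library and under 3 of 4 scalings. It was 0.35 lower in circRNA than in PKR KO (limma adjusted p = 0.00991), and that call was lost under the microglial scaling.

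Of 4 tested genes for lipoproteins and related ligands of these receptors, Lpl and Apoe rose in 5xFAD EGFP, where 7.65% of all tested genes rose. Lpl, a lipoprotein lipase, stood at 0.548 ± 0.0265 FPKM (SD) in the 3 wild type and 23.5 ± 1.02 FPKM in the 2 5xFAD EGFP libraries and rose by 3.99 on the log2 scale (limma adjusted p = 1.58e-07). Apoe, a main lipoprotein ligand of Lrp1, stood at 324 ± 25.6 and 1855 ± 242 FPKM in the same libraries and rose by 2.51 (limma adjusted p = 6.71e-06). Clu and App, with log2 changes of -0.74 and -0.11, did not pass (limma adjusted p = 0.280 and 0.742). Both Lpl and Apoe also rose in circRNA (4.31 and 2.89) and in PKR KO (3.87 and 3.33) against the same wild type libraries, beside an Lrp1 level that did not pass. In PKR KO the other 2 tested genes, Clu and App, did not pass (log2 changes of -0.80 and -0.25), but 2 of the 4 were called lower there under quantile normalization (as were 1850 of all 10817 tested genes) and after rescaling (5421), and 1 with the replicate number as a block (2051).

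**Figure D4:**
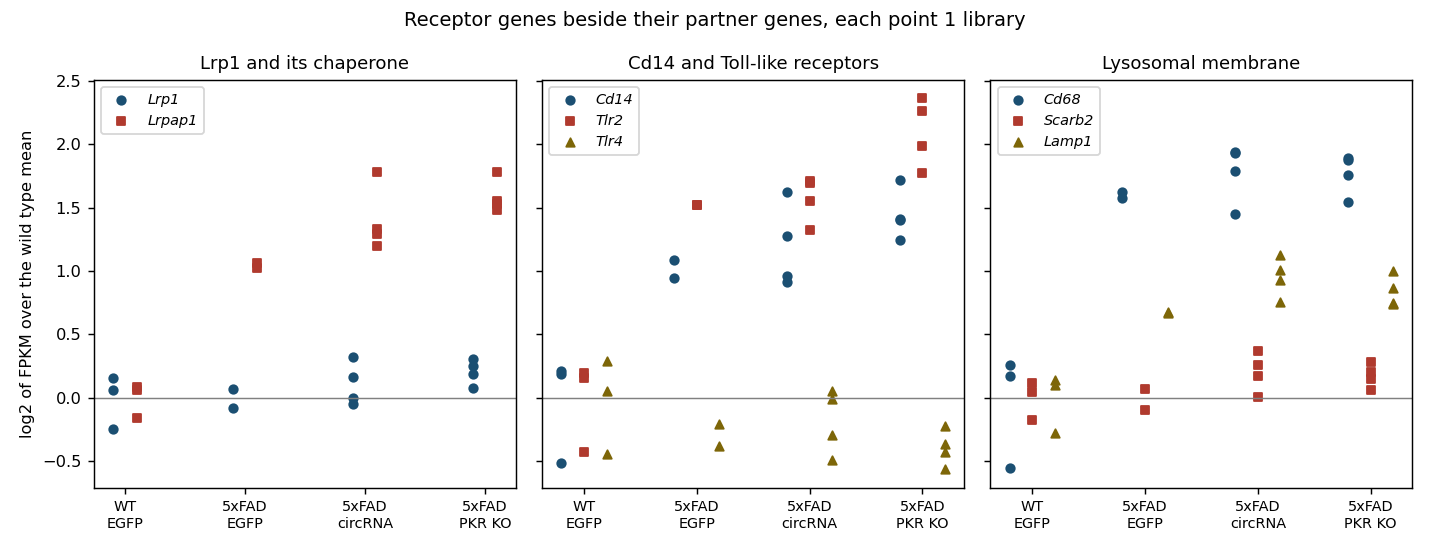
Log2 of FPKM over the wild type mean for Lrp1 with its chaperone gene Lrpap1 (left), Cd14 with Tlr2 and Tlr4 (middle), and Cd68 with Scarb2 and Lamp1 (right), with 1 point per library, where points of near-equal value overlap. The line at 0 is the wild type mean. Lrpap1 stands above Lrp1 in all 10 5xFAD libraries, and the Tlr4 points lie below the Cd14 points in each of them.

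Cd14 read 61.6, 60.6 and 37.1 FPKM in wild type, 113 and 102 in 5xFAD EGFP, 103, 129, 164 and 99.7 in circRNA, and 174, 140, 126 and 141 in PKR KO. Every 5xFAD library lay above every wild type library, and all 4 PKR KO libraries lay above both 5xFAD EGFP libraries. Cd14 rose by 1.04 on the log2 scale in 5xFAD EGFP (SE 0.25, limma adjusted p = 0.0149), by 1.21 in circRNA (SE 0.21, limma adjusted p = 0.00100) and by 1.46 in PKR KO (SE 0.21, limma adjusted p = 0.000202) against wild type. The first call was lost without either 5xFAD EGFP replicate (limma adjusted p = 0.109 and 0.0846) and with only the groups compared in the model (0.0841, over a range of 0.000340 to 0.0841 in the alternatives). The PKR KO and 5xFAD EGFP ranges did not overlap, as for 17.7% of all tested genes in that direction. The mean was 1.35-fold higher, and the log2 change of 0.42 (95% interval -0.08 to 0.93) did not pass (limma adjusted p = 0.453). Between circRNA and PKR KO the log2 difference of -0.25 did not pass either (limma adjusted p = 0.436), except in the fit with a weight for each library, where it was -0.42 (limma adjusted p = 0.0288, range over the alternatives 0.0288 to 0.682).

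Of the 12 listed genes that work with CD14, all tested, 3 rose and 1 fell in 5xFAD EGFP, where 7.65% and 6.35% of all tested genes did, so the count that fell is near the background. After rescaling to the same FPKM sum 3 rose and 3 fell, where 3001 of all 10817 tested genes fell. Tlr2, a Toll-like receptor for bacterial lipoproteins, rose by 1.48 (SE 0.20, limma adjusted p = 0.000455), from 14.6 ± 3.27 to 41.9 ± 0.116 FPKM. Cd180, a Toll-like receptor homologue, rose by 1.01 (limma adjusted p = 0.0260) and its partner Ly86 by 0.77 (limma adjusted p = 0.0151), and both calls were lost without either 5xFAD EGFP replicate, that of Cd180 also without wild type replicate 1 or replicate 3. Lbp, which encodes the protein that delivers bacterial lipopolysaccharide to CD14, fell by 1.19 (limma adjusted p = 0.0215), a call also lost without either 5xFAD EGFP replicate or wild type replicate 1 and under the microglial scaling. Tlr4 and its partner Ly96, which form the lipopolysaccharide receptor, had log2 changes of -0.24 and -0.26 and did not pass (limma adjusted p = 0.451 and 0.314). The ratio of Tlr4 to Cd14 FPKM was 0.175 ± 0.0145 (SD, n = 3) in wild type, 0.0702 ± 0.00125 (n = 2) in 5xFAD EGFP, 0.0673 ± 0.00853 (n = 4) in circRNA and 0.0495 ± 0.0110 (n = 4) in PKR KO. Tlr1, a partner of Tlr2, rose by 0.60 in PKR KO against wild type, and Tirap, an adaptor of these receptors, fell by 0.36. Tirap was also 0.25 higher in circRNA than in PKR KO, a call lost in 6 of 8 fits without a library and under 2 of 4 scalings.

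Cd68 had the largest change of the 9 receptors in each comparison with wild type. It read 134, 142 and 81.1 FPKM in wild type, 367 and 355 in 5xFAD EGFP, 410, 455, 457 and 325 in circRNA, and 348, 437, 402 and 443 in PKR KO. The lowest 5xFAD library was above the highest wild type library by more than the whole wild type range. Cd68 rose by 1.63 on the log2 scale in 5xFAD EGFP (SE 0.23, limma adjusted p = 0.000709), by 1.81 in circRNA (SE 0.20, limma adjusted p = 3.29e-05) and by 1.80 in PKR KO (SE 0.20, limma adjusted p = 2.50e-05). All 3 calls held in all 10 alternative settings and in every fit that left out a library. Against 5xFAD EGFP the log2 changes were 0.18 in circRNA (95% interval -0.31 to 0.66, limma adjusted p = 0.797) and 0.17 in PKR KO (95% interval -0.31 to 0.65, limma adjusted p = 0.759), and the sign of each turned under 2 alternatives.

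Lysosomal membrane genes were read beside Cd68 and Scarb2. Of 10 tested, 6 rose and 0 fell in 5xFAD EGFP against wild type, where 7.65% of all tested genes rose, with a median log2 change of 0.60, and 4 rose with the replicate number as a block. Cd63, a tetraspanin of late endosomes, rose by 1.33 (limma adjusted p = 0.000605), Npc2, the lumenal cholesterol carrier, by 1.13 (limma adjusted p = 0.00181) and the metal transporter Slc11a1 by 0.91 (limma adjusted p = 0.00436). Lamp1 and Lamp2, which encode the main lysosomal membrane glycoproteins, rose by 0.68 and 0.53, and both calls were lost without either 5xFAD EGFP replicate, that of Lamp2 also without wild type replicate 3. The Lamp1 call was also lost under quantile normalization and that of Lamp2 after rescaling. Npc1, the membrane cholesterol transporter that works with Npc2, and the channel gene Mcoln1 had log2 changes of 0.06 and 0.14 and did not pass (limma adjusted p = 0.759 and 0.344). Lamp1 stood at 1.10 ± 0.174 of the Cd68 FPKM in wild type (SD, n = 3) and at 0.564 ± 0.0171 in 5xFAD EGFP (n = 2), so the change was unequal between the 2 genes. In circRNA and in PKR KO 7 of the 10 rose against wild type, where 17.8% and 17.5% of all tested genes rose, and the added gene was Laptm5. The sign of Laptm5 turned under 1 of 4 scalings, and its call was lost under 2 of them and without wild type replicate 3, circRNA replicate 1, replicate 2 or replicate 3, or PKR KO replicate 4. In PKR KO the median log2 change was 0.73. Under quantile normalization 4 rose and 1 fell there, with a median of 0.21, and 5 rose and 1 fell without wild type replicate 3. Npc1 was 0.35 higher in circRNA than in PKR KO, a call lost in 6 of 8 fits without a library and under the microglial scaling.

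Of 15 other scavenger receptor genes listed, 8 were tested. In 5xFAD EGFP 1 rose, 4 fell and 3 did not pass, where 7.65% of all tested genes rose and 6.35% fell, with a median log2 change of -0.85. Cxcl16, which encodes a membrane-bound chemokine that also binds oxidized LDL, rose by 1.32 (limma adjusted p = 0.000703), from 6.62 ± 1.74 to 17.6 ± 1.15 FPKM. Mrc1, the mannose receptor, fell by 1.07, Stab1 by 1.06, Cd163, the haemoglobin receptor, by 1.01 and Cd93 by 0.98. These 4 calls were each lost without 5xFAD EGFP replicate 2. Mrc1 and Cd163 are also 2 of the 6 border macrophage markers described beside Cd36. Cxcl16 also rose, by 1.49 and 1.80, and Mrc1, Stab1, Cd163 and Cd93 also fell in circRNA and in PKR KO against the same wild type libraries, and Scarf2 rose in PKR KO (0.37, lost under 2 of 4 scalings and without wild type replicate 3 or PKR KO replicate 2).

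Receptors and bridging proteins for phosphatidylserine, the signal of dying cells, had 13 tested members. In 5xFAD EGFP, where 7.65% of all tested genes rose and 6.35% fell, 4 rose: Axl, a receptor kinase of apoptotic cell uptake, by 2.73 (8.64 ± 2.79 to 61.2 ± 5.43 FPKM), the adaptor gene Tyrobp by 1.68, its receptor Trem2 by 1.15 (lost without 5xFAD EGFP replicate 1) and the integrin gene Itgb3 by 0.72. Itgav fell by 0.36, a call lost without either 5xFAD EGFP replicate and without wild type replicate 1 or replicate 2, and under the microglial scaling. Mertk, the related receptor kinase, stood at 121 ± 17.7 FPKM in wild type and 108 ± 0.729 FPKM in 5xFAD EGFP and did not pass (limma adjusted p = 0.535). In engulfment signalling, Fyn rose by 0.73 and Elmo1 fell by 0.57 among 13 tested genes, a share near the background in each direction, and both calls were lost without either 5xFAD EGFP replicate, that of Fyn also under the microglial scaling. Under quantile normalization 1 of the 13 rose and 3 fell, where 981 of all 10817 tested genes rose and 986 fell, and under the microglial scaling 2 fell, where 308 did. Among 8 tested regulators of scavenger receptor genes, only Mitf passed in 5xFAD EGFP (0.55, limma adjusted p = 0.0103), which is 1 gene beside a background of 7.65%, and it too was lost without either replicate of that group. Against wild type 5 of the 8 rose in PKR KO, where 17.5% of all tested genes rose, among them Mitf by 0.86, Nfe2l2 by 0.81, Rxra by 0.40 and Tfeb by 0.20, of which Tfeb turned sign under 1 of 4 scalings and was lost in 5 of 7 fits without a library. The count that rose was 3 under quantile normalization, 2 after rescaling and 3 under the microglial scaling, and Rxra was not called under the last 2. In 5xFAD circRNA against 5xFAD EGFP no gene of any of the 8 lists passed, and in PKR KO against 5xFAD EGFP only Sorl1 did.

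For the 6 receptors above the filter, the genes whose levels ran most like theirs over the 13 libraries were listed by Pearson r of log2(FPKM + 1), as a description. Group differences and library makeup are shared by all points. For Cd68 they were Galc (r = 0.99), a lysosomal galactolipid enzyme, Mpeg1 (0.99) and Npc2 (0.99). For Cd14 they were Atp6v1f (0.99), a subunit of the proton pump, the ribosomal protein gene Rpl18 (0.99) and Trem2 (0.99). For Scarb1 they were Tmem189 (0.97), Akap1 (0.97) and Tbc1d1 (0.96). For Lrp1 they were Ubash3b (0.97), Fmnl3 (0.97) and Spi1 (0.97), the last of which encodes PU.1. For Scarb2 they were Smcr8 (0.95), Arf1 (0.95) and Copb1 (0.93), and for Colec12 Ssh1 (0.96), Sart3 (0.90) and Snrnp35 (0.90).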

How the data were processed

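Total RNA of 13 microglial libraries was extracted with TRIzol, depleted of ribosomal RNA with RiboMinus, made into stranded total RNA libraries and sequenced on a NovaSeq, per the labels' protocols. The submitters' processing notes name Bowtie2 2.3.5, HISAT2 2.1.0, featureCounts 1.5.1 and the mouse build mm10 (GRCm38), without their roles. The annotation and the strand setting are not given in the sources used here. The authors deposited FPKM per gene. With exon lengths from GENCODE M21, the depth of each library was chosen as the value that best turned low FPKM values into whole fragments. The search kept to a fixed range, since steps smaller than 1 fragment also occurred. It gave depths of 45.2 to 70.0 M fragments, with which 88.5% of 47122 values under 0.3 FPKM came within 0.02 of a whole fragment. Fragment numbers and counting errors of single genes rest on these depths. Counting errors cover counting only.

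The 13 libraries were grouped by their titles. limma 3.58.1 in R 4.3.3 was fitted to log2(FPKM + 1) with a mean for each group (9 residual degrees of freedom, trended variance, two-sided), for 10817 genes whose mean reached 1 FPKM, with Benjamini-Hochberg adjustment in each comparison and a threshold of 0.05. Every receptor is named. Some genes of the lists are counted but not reported here. From each pathway list up to 3 genes in each direction are named, those past the threshold that changed most, and other listed genes (Npc1, Mcoln1, Tlr4, Ly96, Mertk, Clu, App, Lamp1, Lamp2, Laptm5 and some that passed beside them) were named after their values were seen. On simulated data for 5xFAD EGFP against WT EGFP, 88% of 200 genes changed by 1 on the log2 scale were recovered among 10817, and 1.12% of calls were false. The simulated noise was independent between genes and held no shared differences between libraries. Both shares therefore need not hold for the real calls. The alternatives were a pseudocount of 0.1, no filter, 3 scalings, a replicate block, library weights, a marker covariate, only the groups compared and each library left out. A scaling to 4 microglial genes was added after seeing the data. The receptors and the gene lists were chosen with earlier results of these data known.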

Additional observations from a re-analysis of the deposited data

How the results depend on the processing

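Of the receptor calls, those of Cd68 in 5xFAD EGFP, of Cd68 and Cd14 in circRNA and of Cd68, Cd14, Scarb1, Colec12 and Cd36 in PKR KO, each against wild type, held in every setting run for them (7 alternatives for Cd36, 10 for the others, and each library left out). The number of receptors passing (3, 0, 0, 3, 4 and 1 of 6, in the order 5xFAD EGFP against WT EGFP, circRNA against 5xFAD EGFP, PKR KO against 5xFAD EGFP, circRNA against WT EGFP, PKR KO against WT EGFP and circRNA against PKR KO) became 1 in the first with only the groups compared, 1 (Colec12) in the third with library weights, and in the last 2 (Colec12 and Cd14) with library weights and 0 with microglial scaling or only the groups compared. With a library left out the counts of receptors ranged from 1 to 3, 0 to 0, 0 to 0, 3 to 3, 4 to 4 and 0 to 1, and those of all genes from 566 to 1998, 0 to 0, 0 to 2, 2171 to 2864, 3104 to 3846 and 147 to 506, against 1514, 0, 9, 2796, 3997 and 670 with all libraries. Genes called in 5xFAD EGFP against WT EGFP were 3709 after rescaling to the same FPKM sum, 2447 with the marker covariate, 897 with microglial scaling and 509 with only the groups compared. In circRNA against 5xFAD EGFP 29 were called with the marker covariate. In PKR KO against 5xFAD EGFP the count was 0 with a pseudocount of 0.1, no filter, quantile normalization or rescaling, 46 with median-ratio scaling, 822 with library weights, 47 with the marker covariate and 577 with only the groups compared. In circRNA against WT EGFP it was 5676 after rescaling, 1811 with microglial scaling and 1725 with only the groups compared, and in PKR KO against WT EGFP 6595 and 2583 under the first 2 of these. In circRNA against PKR KO it was 3161 with library weights, 1224 with the marker covariate and 105 with microglial scaling. The cause was not tested.

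Scaling moved the balance of directions. Rescaling shifted the median of all genes to -0.17, -0.20 and -0.24 in the 3 comparisons with wild type (main -0.03, 0.02 and -0.05), and microglial scaling to -0.17 in circRNA and -0.18 in PKR KO against wild type and to -0.089 and -0.098 in the same groups against 5xFAD EGFP (main 0.082 and 0.0077). Genes higher and lower in 5xFAD EGFP were 827 and 687, against 708 and 3001 after rescaling and 589 and 308 with microglial scaling. In circRNA against WT EGFP they were 1925 and 871, against 1619 and 1544 (quantile), 995 and 4681 (rescaled), 1779 and 1500 (median-ratio) and 752 and 1059 (microglial). In PKR KO against WT EGFP they were 1898 and 2099, against 1174 and 5421 (rescaled). In circRNA against PKR KO they were 463 and 207, against 164 and 347 (quantile), 339 and 344 (rescaled), 260 and 681 (median-ratio) and 5 and 100 (microglial).

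Receptors near 0 turned sign. In 5xFAD EGFP against WT EGFP, Scarb2 was 0.021 with median-ratio scaling, and Lrp1 was -0.33 (quantile), -0.17 (rescaled), -0.026 (replicate block), -0.091 (library weights), -0.092 (marker covariate) and -0.026 (microglial). In circRNA against 5xFAD EGFP microglial scaling gave Scarb2 -0.0035, Lrp1 -0.11, Cd14 -0.044, Cd68 -0.045 and Colec12 -0.027, quantile normalization Lrp1 -0.033 and Cd68 -0.022, and rescaling Lrp1 -0.0023. In PKR KO against 5xFAD EGFP quantile normalization gave Lrp1 -0.041 and Cd68 -0.13, and the marker covariate Cd68 -0.0064. In circRNA against WT EGFP Scarb2 was -0.079 (quantile), -0.082 (rescaled) and -0.042 (microglial), and Lrp1 -0.36 (quantile), -0.17 (rescaled), -0.068 (library weights) and -0.13 (microglial). In PKR KO against WT EGFP Scarb2 was -0.097 (quantile) and -0.053 (rescaled), and Lrp1 -0.37 (quantile) and -0.017 (rescaled). In circRNA against PKR KO Scarb1 was -0.0067 (median-ratio), Scarb2 -0.029 (rescaled), -0.071 (median-ratio) and -0.056 (microglial), Lrp1 0.0081 (quantile), and Cd68 -0.050 (rescaled), -0.093 (median-ratio), -0.011 (library weights) and -0.077 (microglial). Without a library, Scarb2 ranged from -0.094 to 0.070 and Lrp1 from -0.11 to 0.085 in the first comparison, Lrp1 from -0.00041 to 0.20 in circRNA against WT EGFP, and Scarb2 from -0.028 to 0.090 and Cd68 from -0.065 to 0.12 in the last.

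The planned count model on fragments recovered from the FPKM steps is not reported, since 88.5% of low values came out whole. The replicate block, fitted although same-numbered libraries shared only a number (mean correlation of their deviations 0.02 to 0.33), gave 22 genes in PKR KO against 5xFAD EGFP in place of 9 and ended the Cd36 calls in circRNA against WT EGFP (adjusted p = 0.0517) and against PKR KO (0.0777).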
